A study of Mus musculus with 24 samples.

Results

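RNA of round spermatids from mice homozygous for a knock-in allele of Ddx4 was compared with that from heterozygous mice, as gene and isoform counts. The comparison takes in the libraries titled RNA_KK_1 and RNA_KK_2 (homozygous) and RNA_WK_1 and RNA_WK_2 (heterozygous), 4 of the 24 libraries of the series, chosen by their labels alone. All carried at least 1 copy of the knock-in allele, in germ cells enriched from testis after a digestion in 2 steps, and 2 wild-type round spermatid libraries (RNA_WT_1 and RNA_WT_2) entered the same fit. The other libraries that bear on the comparison are the CB RNA libraries of the same genotypes (3 heterozygous, 3 homozygous), for which the labels give germ cells as the cell type and do not spell out CB. The series title describes the mouse as a tagging knock-in made to study germ granules and RNA homeostasis. The labels name neither the inserted sequence nor the strain or age, and they do not say that the numbered libraries came from separate animals, so each p-value speaks only to variation among these libraries, part of which may be technical.

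Round spermatids are the haploid cells that follow meiosis in the testis. They transcribe genes for the acrosome, the flagellum and the packaging of DNA, and hold many of these mRNAs for later translation. Ddx4, also called mouse vasa homologue, is a DEAD-box RNA helicase of germ cells and a component of germ granules, among them the chromatoid body of round spermatids, where proteins of the PIWI-interacting RNA (piRNA) pathway and of RNA decay gather.

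The 4 libraries held 15.3 to 19.1 M rounded counts each, with 16466 to 17101 genes at 10 counts or more, and transcripts under 1000 bases took 11.3% to 12.7% of the counts. Within a genotype the libraries were close. Over all genes tested, the median absolute log2 difference was 0.127 between the heterozygous libraries and 0.133 between the homozygous ones. Between a homozygous and a heterozygous library it was 0.255 to 0.279. The wild-type libraries differed from each other by 0.383, and transcripts under 1000 bases took 19.3% of the counts in the first of them. The 6-library fit takes its spread from all 3 genotypes and is the stricter one, and the fit of the 4 compared libraries takes it from the heterozygous and homozygous pairs alone. All 16 round spermatid markers, such as Acrv1, Tssk1 and Pgk2, were tested, and no marker of another testicular cell type was at 0 in all 4 libraries, though many were low. In bulk RNA, fewer cells of a type and less RNA per cell cannot be told apart.

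Of the 17809 genes that passed the filter on low counts, 308 (1.73%) differed between homozygous and heterozygous spermatids at an adjusted p under 0.05 in the edgeR quasi-likelihood test with Benjamini-Hochberg adjustment, 242 higher (1.36%) and 66 lower (0.371%) in homozygotes. The median change over all genes was -0.000731 on the log2 scale. Changes were large among the called genes. On the log2 scale, 207 of the higher genes rose by more than 1 and 64 by more than 2. Of the lower genes, 56 fell by more than 1 and 13 by more than 2. Summed over the 242 higher genes, levels went from 4716 CPM (counts scaled to the size of each library) in heterozygotes to 11483 in homozygotes, and the 66 lower genes together went from 2114 to 945 CPM. In all 308 genes both homozygous libraries lay outside both heterozygous ones, as they did in 64.6% of all genes tested. For 241 of the 242 higher genes both wild-type libraries also lay below both homozygous ones, the exception being Gm20862. For all 66 lower genes both lay above. The wild-type libraries took part in the fit that made the calls, and the matching share of all genes tested was not computed. When the fit held just the 4 compared libraries, edgeR called 5577 of 17293 genes (32.3%), 2887 higher (16.7%) and 2690 lower (15.6%), and all 308 genes were among them with the same direction. The ratio of higher to lower calls was smaller in some other fits too. DESeq2 called 545 higher (3.18%) and 251 lower (1.47%), 4.65% of 17118 genes with an adjusted p. Once the trend of log2 change on transcript length was removed, 1058 were called higher and 699 lower. RLE size factors gave 239 higher and 68 lower, and the replicate number as a block gave 11 higher and 1 lower. Leaving out any 1 of the 4 compared libraries from the 6-library fit brought its count to 0, with 1434 to 1558 genes at an unadjusted p under 0.05 in those fits (DESeq2 was not run on these subsets). The same omissions from the 4-library fit left 4383 to 5634 genes, where the lone library of a genotype is assumed to vary like the other pair.

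**Figure D1:**
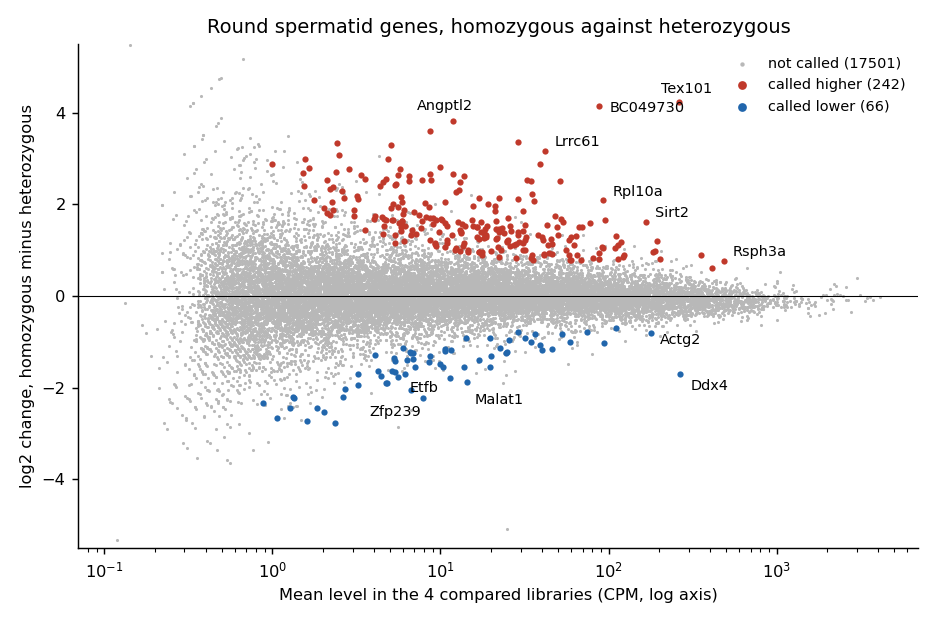
Each point is 1 gene; the x axis is the mean level over heterozygous and homozygous libraries in CPM (log axis) and the y axis the log2 change, homozygous minus heterozygous. Red points are the 242 genes called higher and blue points the 66 called lower by the 6-library fit; Fam205a2 and Gm20862, with 0 counts in heterozygotes, and other genes beyond 5.5 either way are outside the axis. Ddx4 is the most abundant called gene with a marked fall, and Tex101 and BC049730 stand apart among the rises.

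Ddx4 itself (chromosome 13, 112598333 to 112652633 in GRCm38.p6) stood at 406 and 403 CPM in the heterozygous libraries and at 121 and 130 CPM in the homozygous ones. The wild-type libraries were at 443 and 521 CPM, so the heterozygous libraries lay just under them and the homozygous ones far below both. The fall against heterozygotes was 1.69 on the log2 scale (log2 change -1.69, SE 0.123, adjusted p = 0.0138). Ddx4 had the largest loss in CPM of any called gene. Of its isoforms, ENSMUST00000099166 (3012 bases) went from 305 and 311 CPM to 74.0 and 85.1 CPM and ENSMUST00000075748 (2762 bases) from 103 and 92.3 CPM to 49.2 and 45.7 CPM. The shorter isoform made up 27.2% and 24.7% of Ddx4 in heterozygotes and 42.3% and 37.2% in homozygotes by the deposited isoform shares. In wild type that share was 59.3% and 32.8%, so the homozygous libraries lay between the wild-type ones and the heterozygous pair lay below all the others. The usage test did not call the difference (unadjusted p = 0.240 in edgeR).

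Tex101 led the rises among called genes with counts in both genotypes. This gene, which encodes a glycoprotein anchored on the surface of germ cells (chromosome 7, 24668012 to 24672050), went from 26.7 and 26.5 CPM to 517 and 487 CPM, with 33.1 and 25.8 CPM in wild type. Its log2 change of 4.24 (SE 0.166, adjusted p = 0.00224) was the largest of any called gene with counts in both genotypes. BC049730 went from 8.83 and 9.89 CPM to 173 and 157 CPM (log2 change 4.14, adjusted p = 0.00224). Gm4763, listed on chromosome 7 from 24715031 to 24726908 near Tex101, rose from 5.47 and 4.65 CPM to 51.8 and 53.2 CPM (log2 change 3.37). In each of the 3 genes the wild-type libraries lay with the heterozygous ones.

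Secreted and membrane proteins were among the other large rises. Angptl2, encoding a secreted angiopoietin-like protein, went from 1.31 and 1.83 CPM to 22.8 and 21.4 CPM (log2 change 3.82, SE 0.220). Nptx2, the gene of a secreted pentraxin known from synapses, went from 9.78 and 8.71 CPM to 73.3 and 63.6 CPM (log2 change 2.89), and Sel1l3 from 1.79 and 0.786 CPM to 15.6 and 16.5 CPM (log2 change 3.60). Ltc4s, encoding leukotriene C4 synthase, rose from about 1 CPM to 9.35 and 9.01 CPM (log2 change 3.30). Enzymes and structural proteins better known from other tissues followed, with the retroviral-like protease gene Asprv1 at 2.99, the envoplakin gene Evpl of cornified epithelia at 2.67 and Psd4, an exchange factor of ARF GTPases, at 2.78. Gsdmd, the gene of the pore-forming gasdermin D, went from 2.26 and 2.69 CPM to 16.1 and 18.4 CPM (log2 change 2.81). Of transcription factor genes, Spdef (ETS family) rose by 2.78 and Meox1 (homeobox) by 2.67. Lrrc61, encoding a leucine-rich repeat protein, went from 9.20 and 7.73 CPM to 72.7 and 78.8 CPM (log2 change 3.16, SE 0.164, adjusted p = 0.00512).

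Among the called genes with the largest gains in CPM after Tex101, BC049730 (156 CPM) started low, and others were already abundant in heterozygotes. Rsph3a and Rsph3b, near-identical genes on chromosome 17 that encode radial spoke head proteins of the flagellar axoneme, went from 360 and 359 CPM to 611 and 606 CPM and from 249 CPM in each heterozygous library to 468 and 458 CPM. Their log2 changes were 0.76 and 0.90, and reads may be split between the copies, so each is uncertain on its own. Slfnl1, a schlafen-like gene, rose from 328 and 320 CPM to 502 and 495 CPM (log2 change 0.62). Sirt2, encoding an NAD-dependent deacetylase, went from 82.0 and 83.9 CPM to 250.1 and 255 CPM (log2 change 1.61, SE 0.133, adjusted p = 0.0160). Ankar (log2 change 1.20), Crip2, a LIM domain gene (0.99), and Als2cr12 (0.97) rose from 117 to 131 CPM in the heterozygous libraries to between 240 and 277 CPM in the homozygous ones.

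The genes that fell did so by less than the largest rises. Etfb, a subunit of the mitochondrial electron transfer flavoprotein, went from 17.9 and 17.2 CPM to 4.93 and 5.24 CPM (log2 change -1.79, SE 0.159, adjusted p = 0.0188), and Zfp239, a zinc finger gene, from 13.1 and 13.0 CPM to 2.93 and 2.62 CPM (log2 change -2.23). Malat1, a nuclear long non-coding RNA, went from 26.8 and 18.4 CPM to 6.22 and 6.08 CPM (log2 change -1.88, adjusted p = 0.0447). The wild-type libraries held Malat1 at 7.85 and 13.0 CPM, which is between the genotypes rather than with the heterozygotes. Of the 15 largest falls among genes with at least 5 CPM in heterozygotes, 7 were annotated as lncRNA (4930453L07Rik, A230077H06Rik, 4930528D03Rik, Gm36099, Malat1, Gm3519 and Gm32552), with changes of -1.55 to -2.06. Of all 1593 lncRNA genes tested, 11 were called lower (0.691%) and 24 higher (1.51%), against 40 lower (0.282%) and 194 higher (1.37%) of 14194 protein-coding genes. The 1386 genes without an annotated type had a larger share of lower calls than lncRNA genes, 13 lower (0.938%) and 13 higher (0.938%). C1qtnf3, a secreted C1q-family gene, changed by -1.69. Losses in absolute terms after Ddx4 were led by Actg2, the smooth muscle gamma-actin gene, from 232 and 221 CPM to 128 and 130 CPM. Pp2d1, a phosphatase domain gene, went from 130 and 121 CPM to 62.1 and 62.3 CPM (log2 change -1.01) and the testicular ADAM gene Adam26a from 135 and 138 CPM to 82.1 and 85.5 CPM (log2 change -0.70). Arl13b, a small GTPase of cilia, fell from 94.8 and 92.3 CPM to 54.8 and 54.6 CPM (log2 change -0.77), Ccdc117 by 1.15 on the log2 scale (log2 change -1.15) and Dsg1a, a desmoglein, by 1.01 (log2 change -1.01).

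**Figure D2:**
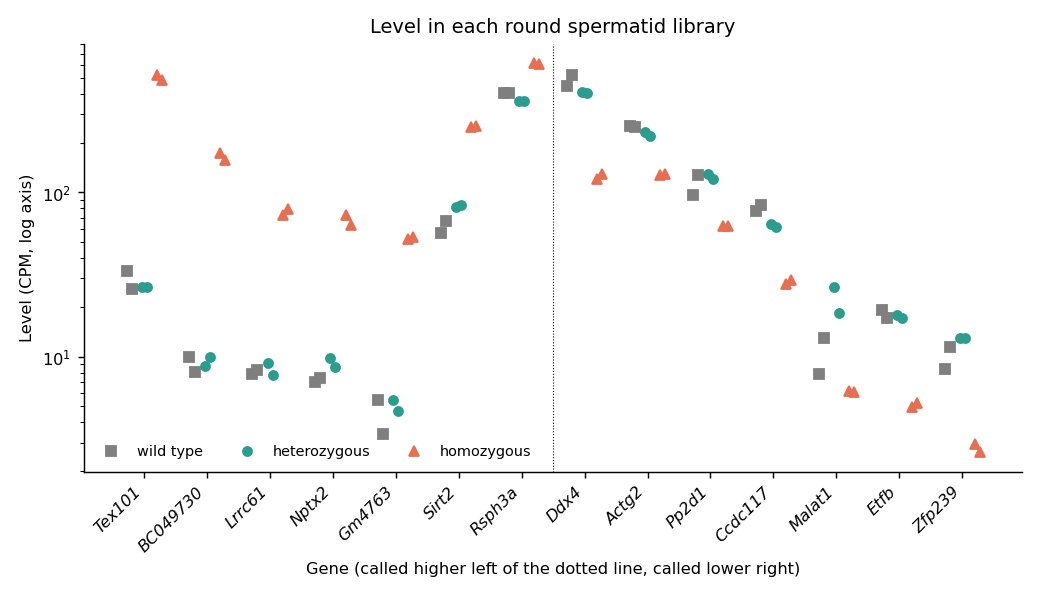
Level of 14 called genes in each round spermatid library (CPM, log axis): grey squares are the 2 wild-type, green circles the 2 heterozygous and orange triangles the 2 homozygous libraries. For each gene both homozygous libraries lie on one side of all the others, from Tex101 at 517 and 487 CPM against 25.8 to 33.1 CPM, to Zfp239 at 2.93 and 2.62 CPM against 8.39 to 13.1 CPM.

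Fam205a2 and Gm20862 had 0 counts in both heterozygous libraries. Fam205a2 had 319 and 234 counts in the homozygous libraries, and 0 in wild type. Taking 3 counts in the heterozygous group as the most that a count of 0 allows, homozygotes were at least 164-fold higher. In CB RNA the genotypes overlapped, with Fam205a2 at 59.1, 23.6 and 0 CPM in the heterozygous libraries and 33.6, 47.4 and 56.3 CPM in the homozygous ones (log2 change 0.73, edgeR adjusted p = 0.774), so heterozygous mice also gave libraries with this RNA. Gm20862, on the Y chromosome, had 89 and 44 counts in homozygotes, at least 39.4-fold higher, but 109 and 70 in wild type, so it is the heterozygous group that stands apart. Both belong to multi-copy families whose reads may be split between copies, and the bounds cover counting error only.

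The 250 bases upstream of the annotated start, from RefSeq in GRCm38.p6, are shown for Ddx4, for the higher genes of smallest p with an entry in the promoter table (Tex101 and Angptl2) and for the lower gene chosen likewise (Etfb), because these are the genes whose RNA differed most clearly. Ddx4 lies at chr13:112652311-112652560 on the minus strand, Tex101 at chr7:24672051-24672300 on the minus strand, Angptl2 at chr2:33215711-33215960 on the plus strand and Etfb at chr7:43443822-43444071 on the plus strand. The Ddx4 window precedes the start that the promoter table lists, and lies within the gene's annotated span given above, which reaches further upstream. Capitals mark matches on either strand to TGACGTCA (the cAMP response element, bound by CREM, an activator of spermatid genes), to the core promoter box TATAAA, to the box CCAAT that NF-Y binds, and to the element TAACNG of MYB factors. No 2 of the motifs share letters at the same place in these windows.
Ddx4: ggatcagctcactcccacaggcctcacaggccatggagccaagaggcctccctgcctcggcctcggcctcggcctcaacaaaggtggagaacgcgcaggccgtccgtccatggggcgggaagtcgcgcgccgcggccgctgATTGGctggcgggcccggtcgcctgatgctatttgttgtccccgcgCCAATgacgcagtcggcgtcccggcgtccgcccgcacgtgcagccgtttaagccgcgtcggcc
Tex101: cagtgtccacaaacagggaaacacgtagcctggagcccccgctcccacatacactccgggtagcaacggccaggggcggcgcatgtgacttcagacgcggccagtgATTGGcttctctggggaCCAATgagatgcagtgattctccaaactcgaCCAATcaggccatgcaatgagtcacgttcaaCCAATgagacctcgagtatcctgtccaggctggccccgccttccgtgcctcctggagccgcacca
Angptl2: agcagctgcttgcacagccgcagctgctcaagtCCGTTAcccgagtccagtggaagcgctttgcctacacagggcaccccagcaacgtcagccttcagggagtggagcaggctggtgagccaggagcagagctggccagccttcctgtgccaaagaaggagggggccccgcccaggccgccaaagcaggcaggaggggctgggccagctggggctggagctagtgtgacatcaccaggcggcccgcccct
Etfb: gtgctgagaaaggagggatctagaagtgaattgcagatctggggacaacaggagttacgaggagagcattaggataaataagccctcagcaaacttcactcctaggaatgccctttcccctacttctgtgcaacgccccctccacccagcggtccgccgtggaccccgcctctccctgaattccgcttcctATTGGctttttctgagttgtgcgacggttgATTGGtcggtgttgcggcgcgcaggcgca
The Tex101 window holds 4 CCAAT matches, those of Ddx4 and Etfb 2 each, and that of Angptl2 a MYB element. A match is a description of the letters and not of binding. Of the called genes, 168 higher and 41 lower ones had a promoter entry. CCAAT was found in 35.1% of the higher and 43.9% of the lower promoters, against 35.6% of the promoters of all 12569 tested genes with an entry. The cAMP response element was found in 2.38% and 2.44%, against 2.59% of tested genes and 1.62% of all 27025 promoters. TATAAA was found in 3 of the 168 higher promoters (1.79%) and in 8 of the 41 lower ones (19.5%), against 7.02% of tested genes and 13.0% of all promoters. The 8 were those of Adh7, Afm, C1qtnf3, Dact3, Gm29825, Gm36099, Gm9839 and Zfp239. Of MYB elements the shares were 18.5%, 19.5% and 17.6% of tested genes.

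Genes of the germ granule and of the spermatid programme were next described as lists, beside the 1.73% of genes called overall. Over 13 pathway lists with 422 genes tested, 5 were called higher and 1 lower. The 4-library fit called 83 of them higher and 111 lower, where it called 16.7% of all genes higher and 15.6% lower. Of the chromatoid body and piRNA pathway genes, 31 were tested and Ddx4 alone was called, and the list's median change was 0.01 (-0.01 with RLE size factors, which turn its sign). Mael, encoding a piRNA pathway protein of germ granules, stood at 1256 and 1260 CPM in heterozygotes and 1344 and 1385 CPM in homozygotes (log2 change 0.12, adjusted p = 0.586). Tdrd6, a Tudor-domain scaffold of the chromatoid body, stood at 1170 and 1143 CPM against 924 and 1023 CPM (log2 change -0.25, adjusted p = 0.736), and Ddx25, a helicase of round spermatids, at 676 and 687 CPM against 671 and 648 CPM. The 4-library fit called Mael higher and Tdrd6 lower, with 5 higher and 6 lower in all. Among the members it called, Piwil2 and Tdrd1, a PIWI and a Tudor protein gene, had log2 changes of 0.98 and 0.75, Piwil1 one of -0.29 and Tex15 one of -0.51.

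Lists of postmeiotic genes had negative medians of small size. None of the 22 postmeiotic transcription regulators, 33 acrosome, 43 flagellum or 18 chromatin compaction genes was called by the 6-library fit, and their median changes were -0.12, -0.11, -0.13 and -0.07. The 4-library fit called 21 flagellum genes lower and 3 higher, 16 acrosome genes lower and 3 higher, and 11 regulators lower and 2 higher, against 15.6% lower and 16.7% higher of all genes. Odf1, an outer dense fibre gene, stood at 1844 and 1797 CPM in heterozygotes and 1331 and 1359 CPM in homozygotes (log2 change -0.44, SE 0.0826, adjusted p = 0.0642, and adjusted p = 1.99e-07 in the 4-library fit). Smcp, of the sperm mitochondrial capsule, stood at 2075 and 1988 CPM against 1504 and 1541 CPM (log2 change -0.42). The acrosome genes Zan and Spaca1 had changes of -0.73 and -0.57 in the 4-library fit, and Actrt2 one of 0.30. The protamine and transition protein genes did not share a direction. Prm1 stood at 1212 and 1491 CPM against 1309 and 1207 CPM, Prm2 at 3067 and 3151 CPM against 3206 and 3137 CPM, and Tnp2 at 2577 and 2598 CPM against 3382 and 3420 CPM, a change of 0.39 that only the 4-library fit called (adjusted p = 2.42e-07, and 0.480 with all 6 libraries).

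Lists of mRNA decay and of mRNA storage and translation held no gene called by the 6-library fit. Of 37 mRNA decay genes (median -0.10) the 4-library fit called 3 higher and 12 lower. Of 37 genes of mRNA storage and translation (median -0.03) it called 9 higher and 12 lower. Its shares over all genes were 16.7% higher and 15.6% lower. Pabpc1, encoding the poly(A)-binding protein, stood at 3139 and 3072 CPM in heterozygotes and 2371 and 2534 CPM in homozygotes (log2 change -0.34, adjusted p = 0.394). Cnot1, the scaffold of the CCR4-NOT deadenylase, stood at 580 and 594 CPM against 497 and 561 CPM, and the deadenylase gene Cnot8 had a change of 1.12 in the 4-library fit. Dazl, encoding an RNA-binding protein of germ cells, had one of 0.66. Of 23 glycolysis gene entries (median -0.10) the 4-library fit called 5 higher and 8 lower, with Hk1 at 2243 and 2113 CPM against 1631 and 1754 CPM and Ldha at 1171 and 1137 CPM against 1357 and 1355 CPM.

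The 3 called members of the interferon, inflammasome and antigen presentation list were all higher. Of its 22 tested genes (median 0.17) these were Gsdmd, Stat6, the signal transducer of interleukin 4 (from 1.68 and 1.70 CPM to 10.1 and 8.39 CPM, log2 change 2.44, SE 0.240), and Tapbpl, encoding the peptide editor TAPBPR (from 10.1 and 11.5 CPM to 44.4 and 50 CPM, log2 change 2.12, SE 0.330). Tapbp stood at 49.4 and 48.4 CPM against 52.6 and 54.3 CPM, and Mx1, an interferon-induced GTPase, was called lower by the 4-library fit (log2 change -1.08). Of 79 ribosomal protein genes (median 0.10) Rpl10a and Rps3 were called, Rpl10a from 32.9 and 37.5 CPM to 159.7 and 143 CPM (log2 change 2.10) and Rps3 from 41.9 and 50.3 CPM to 154 and 137 CPM (log2 change 1.66). Reads of both can also match processed copies of the gene, so these values are uncertain. The 4-library fit called 29 ribosomal protein genes higher and 12 lower, where it called 16.7% of all genes higher and 15.6% lower. None of the 24 stress and apoptosis genes (median 0.06) or of the 32 meiotic prophase genes (median 0.08) was called by the 6-library fit. The 4-library fit called 6 meiotic prophase genes higher and 5 lower. The synaptonemal complex genes Sycp1 (0.46) and Sycp2 (0.44) and the recombinase gene Dmc1 (0.65) were among the higher ones, and Hspa2 (-0.37) and the cohesin genes Rec8 (-0.41) and Stag3 (-0.26) among the lower ones.

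**Figure D3:**
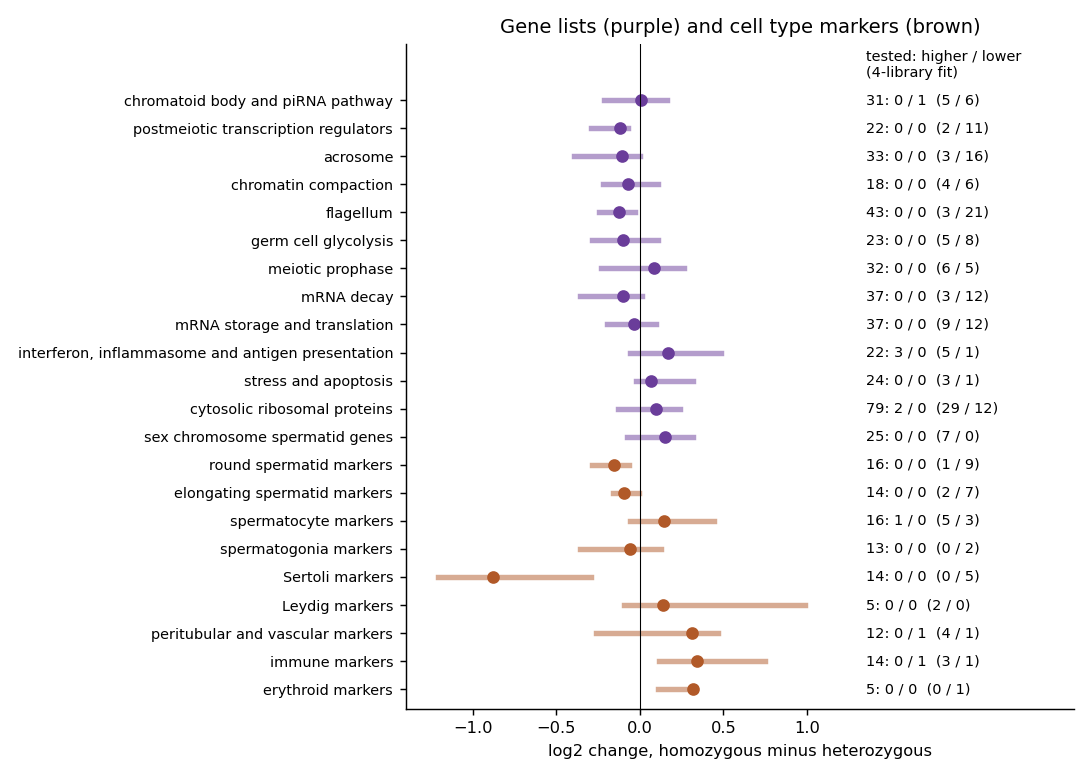
Median log2 change, homozygous minus heterozygous, of 13 gene lists (purple) and 9 cell type marker lists (brown); points are medians and bars run from the lower to the upper quartile of the tested members. Numbers at the right give members tested, called higher and called lower by the 6-library fit, and in brackets by the 4-library fit. Pathway medians lie between -0.13 and 0.17, and the Sertoli markers, at -0.88, lie lowest.

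Markers of the cell types that an enriched fraction can hold moved as follows, and their part in the called genes was not tested. The 16 round spermatid markers had a median of -0.16 with none called by the 6-library fit. The 4-library fit called 1 of them higher and 9 lower, where it called 16.7% of all genes higher and 15.6% lower. Their summed level was 5418 and 5492 CPM in heterozygotes and 4989 and 4887 CPM in homozygotes. The 14 elongating spermatid markers summed to 21770 and 21947 CPM against 21050 and 20915 CPM (median -0.10), with 2 called higher and 7 lower by the 4-library fit. Of the 16 spermatocyte markers, which include Tex101, that gene alone was called, the median was 0.14, and the sums were 3457 and 3454 CPM against 3562 and 3587 CPM. Without Tex101 the direction of the sum turns, to 3431 and 3427 CPM against 3046 and 3100 CPM. Spermatogonial markers stayed between 84.0 and 93.3 CPM in sum (median -0.06). The 14 Sertoli markers that could be tested of 18 had a median of -0.88, with none called by the 6-library fit. The 4-library fit called 5 of them lower and none higher, against 15.6% lower and 16.7% higher of all genes. They summed to 67.2 and 69.4 CPM against 42.9 and 44.9 CPM. Clu stood at 21.7 CPM in both heterozygous libraries and at 12.6 and 13.0 CPM in the homozygous ones (log2 change -0.76, adjusted p = 0.0596), while Sox9, Fshr, Amh and Rhox5 were too low to test. The 12 peritubular and vascular markers tested had a median of 0.31, with 8 positive and 4 negative changes. They summed to 278 and 267 CPM against 188 and 195 CPM, and most of that sum was Actg2, which fell. The 4-library fit called 4 of them higher, among these Dcn (0.44) and Acta2 (1.53), and 1 lower, against 16.7% and 15.6% of all genes. Immune markers summed to 44.0 and 44.3 CPM against 51.5 and 52.7 CPM (median 0.34). Cd5l, a macrophage-secreted protein gene, was the called one, from 6.36 and 7.33 CPM to 1.54 and 2.52 CPM (log2 change -1.75), opposite in direction to the list's median. Leydig markers summed to 9.93 and 9.37 CPM against 17.2 and 15.7 CPM, most of it Insl3 (6.83 and 6.35 CPM against 13.3 and 12.9 CPM, adjusted p = 0.119), and erythroid markers stayed between 8.25 and 10.02 CPM in sum.

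Called genes were spread over the chromosomes, with the X chromosome at the high end. Of 670 X-linked genes tested, 23 were called higher (3.43%) and 1 lower, against 205 higher (1.31%) and 52 lower of 15595 autosomal genes. The 4-library fit called 133 X-linked genes higher and 35 lower, against 2599 higher and 2465 lower of the autosomal ones. Over all genes its shares were 16.7% higher and 15.6% lower. Of the 23, 7 belong to the multi-copy Btbd35f family, which was singled out after these values were seen and therefore has no test. Of its 21 listed members 17 were tested, and the change was positive in 16, with a median of 1.60 and a range from -0.20 (Btbd35f10) to 2.30 (Btbd35f6). Btbd35f2 had the highest level, 13.1 and 10.7 CPM in heterozygotes and 37.4 and 40.2 CPM in homozygotes (log2 change 1.70, SE 0.165). Btbd35f21 went from 4.31 and 3.99 CPM to 18.9 and 15.5 CPM (log2 change 2.04) and Btbd35f24 from 8.62 and 7.60 CPM to 16.5 and 16.9 CPM (log2 change 1.04). The copies share sequence, so their reads may be split among them and they are not independent of each other. Without the family 16 of 653 X-linked genes were called higher (2.45%). The list of sex chromosome genes of spermatids, 25 of them tested (median 0.15), also held Cypt4, which is annotated on chromosome 9. None of the 25 was called by the 6-library fit. The 4-library fit called 7 higher and none lower. Cypt4 was among the 7, as was Cypt1 (116 and 115 CPM against 181 and 164 CPM). By transcript length, genes of 1000 to under 2000 bases were called higher most often (1.89%), and the median change went from 0.07 under 1000 bases to -0.08 at 4000 bases and over.

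Isoform tables gave fewer calls than gene tables. Of 36768 isoforms tested edgeR called 2 (0.00544%), both higher and both the leading isoform of a gene named above. These were ENSMUST00000078001 of Tex101 (25.0 and 24.8 CPM against 526 and 491 CPM, log2 change 4.35, adjusted p = 0.0270) and ENSMUST00000051714 of BC049730 (log2 change 4.16, adjusted p = 0.0492). The 4-library fit called 613 higher (1.8%) and 379 lower (1.11%) of 34116, 2.91% in all. The Tex101 isoform made up 94.3% and 94.4% of the gene in heterozygotes and 99.8% in both homozygous libraries. The minor isoforms ENSMUST00000205488 and ENSMUST00000206390 reached at most 1.16 CPM in any of the 4, so the rise of the gene was a rise of 1 transcript.

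In 26 of 8658 genes with at least 2 isoforms (0.3%), edgeR found that the isoforms changed by different amounts, and of these Tex101 alone was also called at the gene level. Most involved an isoform with no counts in 1 genotype, in both homozygous libraries for 12 genes and in both heterozygous libraries for 9. Knop1 had the smallest adjusted p (9.74e-05 in edgeR), from an isoform at 2.43% and 1.53% in heterozygotes and 0% in homozygotes and wild type. The examples that follow are not those of smallest p. In Keap1, encoding the sensor that marks the oxidative stress factor NRF2 for degradation, ENSMUST00000049567 made up 18.4% and 34.8% of the gene in heterozygotes and 0% in homozygotes, while the gene's level was 61.2 and 62.8 CPM (means of heterozygotes and homozygotes). Wild-type libraries had 65.1% and 18.9% of it. In Frmd4a ENSMUST00000177457 went from 38.4% and 19.1% to 0%, with 29.3% and 15.9% in wild type. In Mms22l, a DNA repair gene, ENSMUST00000108222 had 23.9% and 33.4% in heterozygotes and 0% in homozygotes, but also 0% and 3.97% in wild type, so there the heterozygous pair stood apart. A higher share in homozygotes than in heterozygotes was seen in Stag3, the meiotic cohesin subunit, where ENSMUST00000162245 had 3.12% and 1.42% against 23.9% and 36.1%, and in Ndufv1, a complex I subunit, where ENSMUST00000128787 had 1.44% and 2.36% against 28.6% and 17.5%. In both genes the wild-type shares lay with the homozygous ones, 26.4% and 27.5% in Stag3 and 36.6% and 16.9% in Ndufv1, so the heterozygous pair stood apart there too. Zfp458 exchanged nearly all of 1 isoform for another between the genotypes. Its isoform ENSMUST00000225772 (3485 bases) took 99.3% and 99.6% of the gene in heterozygotes and 0% in homozygotes, where ENSMUST00000045969 (3488 bases) took 100% and 99.4%, at gene levels of 22.7 and 22.3 CPM against 22.0 and 19.9 CPM. In wild type the first of these isoforms had 99.0% in 1 library and 52.8% in the other, and the isoform test gave an adjusted p of 0.107 with all 6 libraries and called it with the 4 compared ones (edgeR adjusted p = 0.0268). The deposited values do not hold the uncertainty of assigning reads to isoforms, so these p-values miss it. Counting only isoforms with at least 10% of their gene left 6 genes called of 6500, 5 of them among the 26, Chid1, Rims3 and Frmd4a included. Keap1 (adjusted p = 0.0860 in edgeR), Mms22l (0.0682), Stag3 (0.187) and Ndufv1 (0.110) lost their call in that test.

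**Figure D4:**
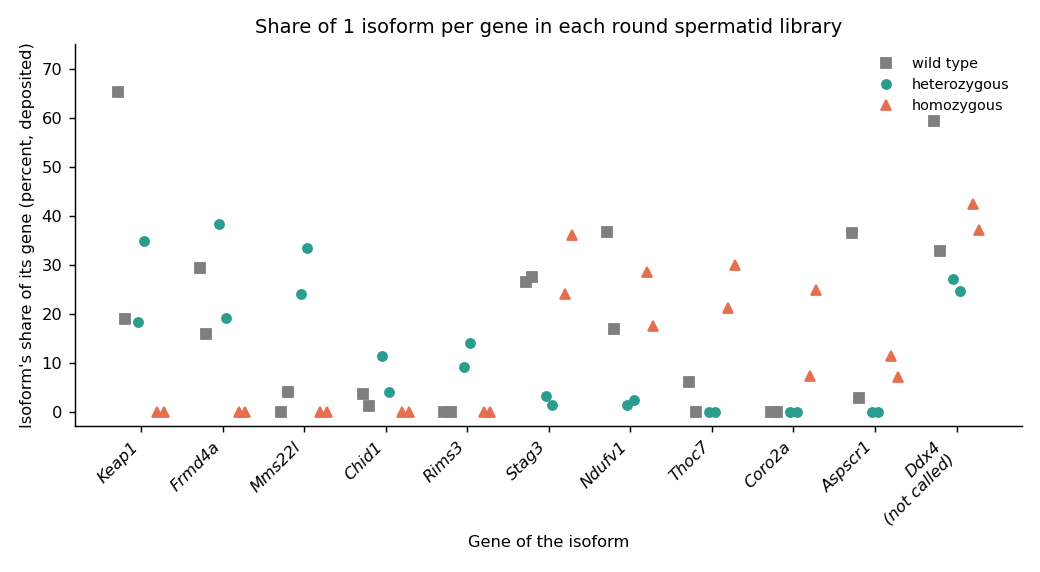
Deposited share of 1 isoform per gene (percent of the gene) in each round spermatid library, for 10 genes called in the usage test and for the shorter Ddx4 isoform, which was not called. Symbols are as in the plot of levels by library. Keap1, Frmd4a, Mms22l, Chid1 and Rims3 isoforms are at 0% in both homozygous libraries, but that of Rims3 is also at 0% in wild type and that of Mms22l at 0% and 3.97%. The Stag3 and Ndufv1 isoforms are low in the heterozygous libraries alone.

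The genes that differed in round spermatids were then followed in CB RNA of the same genotypes, made with another kit and less RNA. Of the 308 genes 294 were tested there. Of the 228 higher ones, 215 had a positive change in CB RNA and 69 were called higher by edgeR, and of the 66 lower ones 62 had a negative change and 8 were called lower. None was called in the opposite direction. That is 25% of the 308 genes and 23.2% of the 332 genes called in CB RNA (1.72% of 19335 tested, with 1.16% called higher and 0.559% lower). Changes were smaller in CB RNA: the higher genes had a median of 1.498 in spermatids and 0.56 in CB RNA, and the lower ones -1.41 and -0.50. Over all genes the median change in CB RNA was -0.00479, and the share of all genes with each sign is not given here. The genes were chosen on the spermatid change, so the sizes are not compared further here. Evpl rose as clearly in both, from 11.1 to 12.5 CPM in heterozygous CB libraries to between 54.4 and 58.6 CPM in homozygous ones (log2 change 2.26, adjusted p = 2.5e-05), and the test of the difference did not call it (adjusted p = 0.699). Sel1l3 (2.69 in CB RNA) and Actg2 (-0.91) also passed in both.

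The difference between the genotype effects was called in 46 of 22002 genes (0.209%), 36 of them among the 308. Tex101 stood at 16.7, 38.5 and 32.6 CPM in heterozygous CB libraries and at 92.8, 83.4 and 101 CPM in homozygous ones, a log2 change of 1.65 (adjusted p = 0.00930) that was smaller by 2.53 than in spermatids (log2 difference -2.53, SE 0.354, adjusted p = 0.0122). BC049730 stood at 12.8, 14.8 and 17.7 CPM against 37.1, 35.5 and 36.1 CPM (log2 difference -2.83, adjusted p = 0.000108). Ddx4 was the called gene of largest loss in spermatids and overlapped between genotypes in CB RNA, at 277, 312 and 365 CPM against 303, 306 and 244 CPM (log2 difference 1.59, adjusted p = 0.0122). Kit, amount of RNA and labelled cell type differ between the kinds of library together, so their parts in these differences cannot be told apart.

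**Figure D5:**
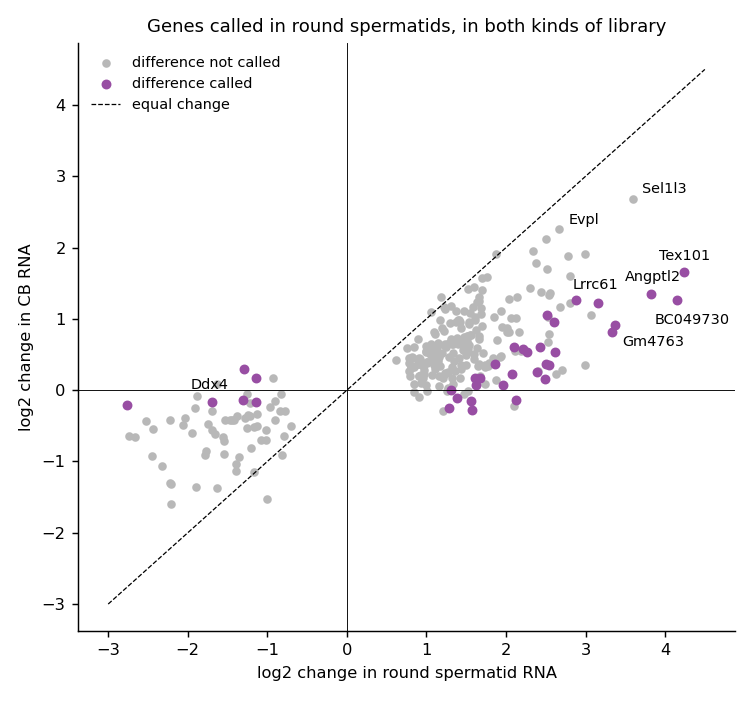
Log2 change, homozygous minus heterozygous, in round spermatid RNA (x axis) and CB RNA (y axis) for the called spermatid genes tested in both, with Fam205a2 outside the axis. Purple points are genes whose difference between the kinds of library was called, and the dashed line marks equal change. Most points lie on the same side of 0 in both and between the x axis and the dashed line, and Ddx4 lies at -1.69 and -0.16.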

How the data were processed

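Per the file headers, the authors deposited for each library a table per Ensembl gene and a table per isoform, with expected counts (read estimates with decimals), TPM and, for isoforms, the percent of the gene each isoform makes up. Trim Galore and the build mm10 stand in the submitters' processing notes. Quantifier, aligner and annotation release: not given in the sources used here.

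Expected counts, as deposited, were rounded and tested with edgeR 4.0.16 in R 4.3.3 (TMM factors, a filter by filterByExpr, the quasi-likelihood F test, Benjamini-Hochberg adjustment over all features tested, threshold 0.05). Isoform usage was tested with diffSpliceDGE and a Simes p-value per gene. The 6 round spermatid RNA libraries shared 1 fit with a mean per genotype; the contrast was homozygous minus heterozygous. Levels are CPM on TMM-scaled library sizes. Isoform CPM use the filter, library sizes and factors of the isoform fit, so the CPM of an isoform can exceed that of its gene. A "4-library fit" holds only the heterozygous and homozygous libraries. The 6 CB libraries had their own fit, and the difference of genotype effects was tested over 12 libraries. DESeq2 1.42.0 was an alternative. The deposited TPM values of the authors entered no result. The scripts were tested on simulated data.

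Named genes were Ddx4 and the 15 largest rises and falls among called genes with at least 5 CPM in the higher group. To these were added the 10 largest gains and losses in CPM and genes at 0 in a whole group. Called or most abundant members of each list were also named. Examples called only by the 4-library fit, examples of isoform usage, the X chromosome, the Btbd35f family and Zfp458 were picked after their values were seen. The comparison and the lists were chosen with earlier results of these data known. Of 55364 genes, 37982 matched the RefSeq table (GRCm38.p6) by symbol and 574 by synonym. Small RNA libraries were not used here. Intervals and floors cover counting error only.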

Additional observations from a re-analysis of the deposited data

Results flagged for a closer look

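The genotype effect differed between CB RNA and round spermatid RNA, by the edgeR test of the difference itself over 12 libraries, for 9 of the genes named by the size of their change in spermatids, a choice that favours a larger change there. Tex101 (log2 difference, CB minus spermatid, -2.53), BC049730 (-2.83), Gm4763 (-2.39), Angptl2 (-2.41), Lrrc61 (-1.88), Nptx2 (-1.57) and Rpl10a (-1.44) rose less in CB RNA. Lrrc61 stood at 56.1 to 76.7 CPM in heterozygous CB libraries and 154 to 165 CPM in homozygous ones. Gm4763 stood at 4.08 to 9.05 CPM against 12.8 to 15.2 CPM and was not called there (adjusted p = 0.116). Ddx4 (1.59) and Ccdc117 (1.03) fell in spermatids and were not called in CB RNA. Ccdc117 stood at 80.1 to 87.7 CPM in heterozygous and 69.7 to 80.3 CPM in homozygous CB libraries (adjusted p = 0.494). The kinds of library differ in kit, amount of RNA and labelled cell type, which cannot be told apart here.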

How the results depend on the processing

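The count of called genes depended on which libraries set the spread. Against 308 genes in the 6-library fit, edgeR called 912 without the filter on low counts, 1757 with the length trend removed, 5577 with only the 4 compared libraries and 12 with the replicate block, and DESeq2 called 796. Leaving out 1 library gave 0 (any heterozygous or homozygous library) to 5608 genes (wild-type library 1). The added alternative, the 4-library fit without 1 library, gave 4383 and 4611 genes without heterozygous library 1 or 2 and 5102 and 5634 without homozygous library 1 or 2; it was chosen after seeing the data. Same-numbered libraries of the compared genotypes did not deviate together (correlation -0.0238, and 0.151 and -0.143 of homozygous and heterozygous with wild type). Ddx4, Tex101, BC049730, Angptl2, Gm4763, Lrrc61 and Nptx2 kept their call with the block. Of 52 genes named by size or as called list members, none changed direction under any alternative run, all kept their call under RLE factors, DESeq2, no filter and the 4-library fits, 51 with the length trend removed (Gm12206 lost it), 7 with the block and 0 without any 1 heterozygous or homozygous library. Isoform calls were 2 with all libraries, 1 with RLE factors, 114 without the filter, 992 with only the 4 libraries, 0 with the replicate block and 0 to 668 without 1 library. Usage calls were 26, against 6 for isoforms of at least 10 percent, 200 with only the 4 libraries, 7 with the replicate block and 3 to 18 without 1 library. CB calls were 332, against 882 without the filter, 598 by DESeq2, 163 with the replicate block and 51 (without homozygous CB library 1) to 2213 (without heterozygous CB library 1). Calls of the difference between effects were 46, against 191 without the filter, 269 without wild type, and 2 to 62 without 1 library. List medians changed sign for the chromatoid body list with RLE factors or DESeq2 (-0.01) and for it, the spermatogonial and the Leydig markers without single libraries. The cause of these shifts was not tested. Counts of 2 libraries a genotype limit all of this.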

Other observations

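Of the genes with a mean of at least 5 CPM over both genotypes, 5 had a change of at least 2 on the log2 scale and were not called by the 6-library fit. In Fam205a4, of the same multi-copy family as Fam205a2, the heterozygous libraries stood far apart, at 92.4 and 4.13 CPM, and so did the wild-type ones, at 54.9 and 3.66 CPM, while the homozygous ones were at 1.28 and 1.57 CPM (log2 change -5.08, SE 1.84, edgeR adjusted p = 0.239). 1700031F10Rik stood at 8.67 and 2.10 CPM in heterozygotes, 31.0 and 19.1 CPM in homozygotes and 91.5 and 20.5 CPM in wild type. The others were 4933404I11Rik (log2 change 2.02, adjusted p = 0.0551), which was called higher in CB RNA too (1.38, adjusted p = 0.0347), Gm45062 (-2.85) and Gm49364 (-2.48, adjusted p = 0.0606). Gm49364 stood at 12.04 and 10.6 CPM in heterozygotes and 2.06 and 1.99 CPM in homozygotes, and at 1.74 and 4.89 CPM in wild type. These genes were chosen after their values were seen.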
